A study of Homo sapiens with 6 samples.

Results

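The 10 genes described here fill, sense, open and refill the calcium stores of the endoplasmic reticulum, or carry calcium across the plasma membrane. They are the pore genes ORAI1, ORAI2 and ORAI3, the sensor genes STIM1 and STIM2, the receptor genes ITPR1, ITPR2 and ITPR3, and the pump genes ATP2A2 and ATP2B1. They were taken by gene name from a table of 58735 genes, and all 10 were found. The cells were SZ95, an immortalised line of human sebaceous gland cells, so the libraries of both groups came from 1 line. One group of 3 libraries came from cells transfected with a TRPV3-overexpression plasmid, and the other 3 came from cells labelled WT that received a mock plasmid, each at 24 h. The promoter that drives TRPV3 in the plasmid and the share of cells transfected have no label or note, and no agonist or other stimulus is named for either group. The values were FPKM, the reads of a gene per kilobase of its exons and per M reads. The design asks what RNA levels do in sebocytes that carry excess TRPV3, a cation channel of the skin that lets calcium in.

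As background, receptors such as ITPR3 sit in the membrane of the endoplasmic reticulum and release stored calcium when they bind inositol trisphosphate (IP3). As the store empties, STIM proteins, whose lumenal ends bind calcium, gather near the plasma membrane and open ORAI pores, a route called store-operated calcium entry. SERCA pumps such as that of ATP2A2 return calcium to the store, and plasma membrane pumps such as that of ATP2B1 push it out of the cell. In skin, loss of 1 working copy of ATP2A2 causes Darier disease, in which keratinocytes lose contact with each other.

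None of the 10 genes passed the test, so no member was called higher or lower with the TRPV3 plasmid. The test was limma on log2(FPKM + 1), with Benjamini-Hochberg adjustment over the 12177 genes whose mean reached 1 FPKM and a threshold of 0.05 on the adjusted p. It took in 9 of the 10 members, since ITPR1 lay under 1 FPKM. Across all genes tested it called 5, or 0.0411%, all higher with TRPV3. None of the 9 members had an unadjusted p under 0.05, against 546 of all genes tested, or 4.48%. Limma-voom with sample quality weights was also run on recovered reads. It called none of the 9, against 1.14% of all genes (0.813% higher with TRPV3 and 0.328% lower). No member had an unadjusted p under 0.05, against 14.1% of all genes. In that fit TRPV3 replicate 1 had a weight of 0.071, against 0.74 to 3.38 for the other 5 libraries.

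The libraries held between 16.02 and 18.4 M reads on genes. TRPV3 itself had 536, 671 and 738 FPKM in TRPV3 replicates 1 to 3, against 0.437, 0.359 and 0.415 FPKM in mock replicates 1 to 3. The log2 fold change of FPKM + 1 was 8.84 (SE 0.12, adjusted p = 2.70e-07 by limma), in the direction of the labels. With 0.1 added to FPKM in place of 1 it was 10.3, so its size depends on the value added. Of 13 sebocyte markers, 8 had a mean of at least 1 FPKM, among them KRT7, a keratin of simple and glandular epithelia, and MUC1, a surface mucin. AWAT2, a wax synthase of mature sebocytes, was listed at 0 in all 6 libraries. All 6 general epithelial markers reached 1 FPKM, and 1 of 6 fibroblast, 1 of 5 leukocyte, 1 of 3 endothelial and none of 3 melanocyte markers did. The summed fibroblast markers lay between 2.05 and 2.20 FPKM with TRPV3 and between 2.37 and 2.91 FPKM with mock. Nearly all of that sum was 1 gene, COL1A1, with a mean of 2.29 FPKM over the 6 libraries. Of all genes tested, 5.39% had their TRPV3 libraries wholly below. The part of these markers in any result was not tested. A pair of libraries stood apart. In TRPV3 replicate 1, genes of under 2 kb were high and genes of 8 kb or more were low, with median deviations from the other 5 libraries of 0.34 and -0.30 on the log2(FPKM + 1) scale. In the other 5 libraries the same medians over length classes lay between -0.12 and 0.12. In mock replicate 3, 34467 genes had a read, against 22311 to 23072 in the other 5 libraries. Log2 fold changes are therefore given with and without TRPV3 replicate 1 for the tested members and the other calcium genes named. A fit with the trend with gene length removed from each library was also run, and its values are given for the tested members. How much of any log2 fold change is due to gene length was not tested. Since RNA was taken from bulk cultures, fewer cells that express a gene and less RNA of it per cell cannot be told apart.

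**Figure D1:**
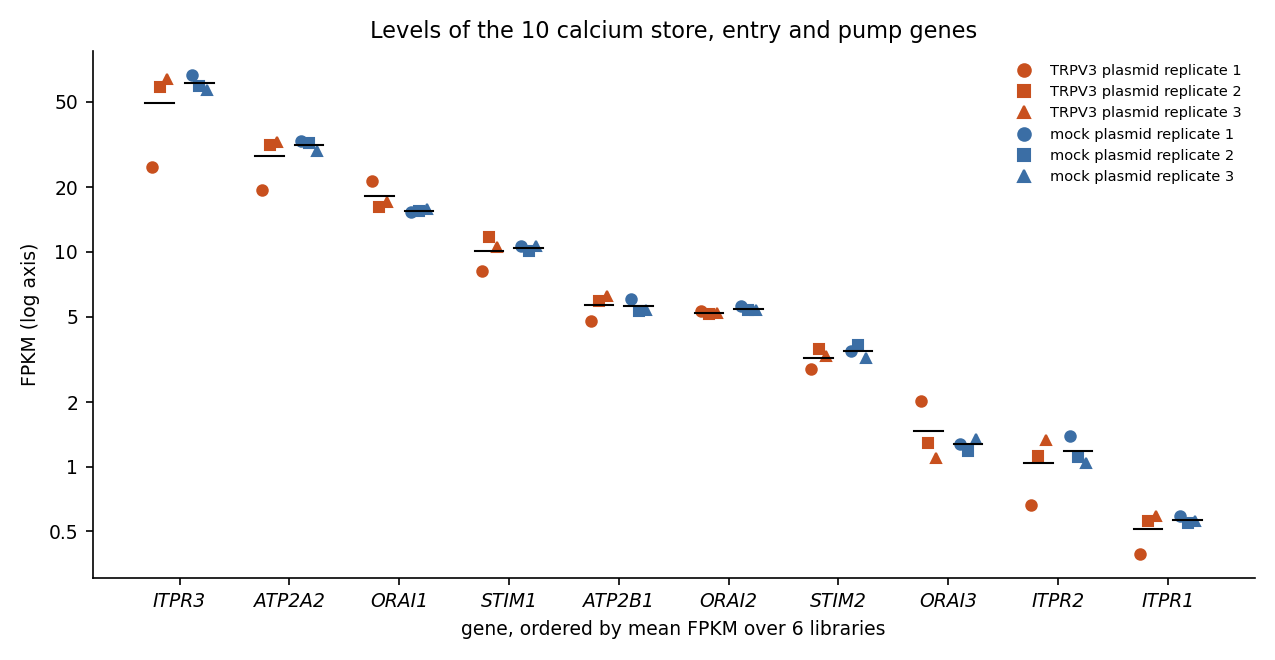
FPKM of the 10 genes in each library on a log axis, with the TRPV3 plasmid left of the mock plasmid; points are single libraries, marked by replicate, and bars are means of 3. ITPR3 and ATP2A2 lay highest and ITPR1 lowest, and TRPV3 replicate 1 was the low point for both of the abundant genes.

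The level of a gene varied far more between genes than between groups. By mean FPKM over the 6 libraries, ITPR3 stood first at 55.1, followed by ATP2A2 at 29.7, ORAI1 at 16.9 and STIM1 at 10.3 FPKM. ATP2B1 followed at 5.61, ORAI2 at 5.33 and STIM2 at 3.33 FPKM. ORAI3 at 1.37, ITPR2 at 1.11 and ITPR1 at 0.540 FPKM closed the order. The ranges over libraries overlapped between ITPR3 and ATP2A2, between ATP2A2 and ORAI1, between ATP2B1 and ORAI2, and between ORAI3 and ITPR2, and not between the other neighbours. FPKM divides by the merged length of all annotated exons, which is 32454 bases for ITPR1 although the transcript with its longest coding sequence has 9589. Per kilobase of that transcript, which assigns all reads of a gene to it, ATP2A2 led at 99.7 and ITPR3 followed at 55.1 FPKM. On the same transcript scale ITPR1 at 1.83 FPKM lay above ORAI3 at 1.64 and ITPR2 at 1.24 FPKM, so the order of the scarce genes depends on the length used.

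Stretches just before a RefSeq start are shown for genes from both ends of that order. These are an abundant pump, the scarcest ORAI and the scarcest IP3 receptor by FPKM. Since no member was called, they describe genes by level and bear on no change. RefSeq windows (GRCh38.p14) were found for 8 of the 10 members, with 13 windows of 250 bases before a start, and each stretch is the portion of 1 window that holds no annotated exon. ORAI1 and ITPR2 are named only. Both strands were searched for the CCAAT box, spelled CCAAT, which occurred in 32.0% of all 35116 such windows. The core letters of NFAT sites, GGAAA, were searched likewise and occurred in 55.6% of them. The GC box, GGGCGG, occurred in 42.6%. No motif lies within another, though their end letters can overlap. Capitals mark GC boxes.
ATP2A2, chr12:110280997-110281115, plus strand: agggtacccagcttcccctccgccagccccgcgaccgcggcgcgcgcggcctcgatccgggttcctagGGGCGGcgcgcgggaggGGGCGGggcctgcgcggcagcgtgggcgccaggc
ORAI3, chr16:30948818-30949065, plus strand: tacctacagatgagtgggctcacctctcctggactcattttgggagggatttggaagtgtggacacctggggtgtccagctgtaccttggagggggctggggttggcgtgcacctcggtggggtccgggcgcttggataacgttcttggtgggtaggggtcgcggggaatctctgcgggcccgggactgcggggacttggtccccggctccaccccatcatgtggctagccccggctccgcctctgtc
ITPR1, chr3:4493164-4493344, plus strand: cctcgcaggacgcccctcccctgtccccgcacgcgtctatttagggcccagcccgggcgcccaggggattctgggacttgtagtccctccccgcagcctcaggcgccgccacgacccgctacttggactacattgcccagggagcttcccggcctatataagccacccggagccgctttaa

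ATP2A2 has 2 windows. The stretch shown, from the downstream one, lies past the annotated start of the gene at 110280756. It held 2 GC boxes and a G+C share of 82.4%. The whole downstream window of 250 bases, exon included, held 4 GC boxes, 1 CCAAT box and a G+C share of 80.4%. The other window (chr12:110280366-110280615) held no exon, none of the 3 motifs and a G+C share of 54.8%. The stretches of ORAI3 and ITPR1 held none of the 3 motifs, with G+C shares of 64.5% and 66.9%. Their whole windows held none either, each with a G+C share of 64.8%. The quartiles over all windows, like the motif rates, are for whole windows and not for such stretches, and were 46.4% and 68% G+C.

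By FPKM, the 2 more abundant pore genes kept their groups apart, in opposite directions and without passing the test. Once the trend with gene length was removed from each library, both log2 fold changes lay above 0. ORAI1 (ENSG00000276045, chr12:121626550-121642677, plus strand, hg38) encodes the main pore of store-operated entry in many cell types. It had 21.4, 16.2 and 17.03 FPKM in TRPV3 replicates 1 to 3, against 15.3, 15.5 and 15.8 FPKM in mock replicates 1 to 3. The groups did not overlap, with the TRPV3 libraries on top, and replicate 1 was the high one. Of all genes tested, 9.49% had their TRPV3 libraries wholly above. ORAI1 averaged 18.2 ± 2.81 FPKM with TRPV3 and 15.5 ± 0.276 FPKM with mock (SD, n = 3 each), from 657 to 856 reads against 568 to 653 reads. Its log2 fold change was 0.21 (SE 0.11, 95% interval -0.05 to 0.47, adjusted p = 0.755 by limma), and without TRPV3 replicate 1 it was 0.09 (interval -0.03 to 0.21). With all 6 libraries and the trend with gene length removed from each library it was 0.097.

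ORAI2 (ENSG00000160991, chr7:102433106-102456821, plus strand) encodes a second pore subunit, which in mouse T cells lowers the current carried by ORAI1. It had 5.30, 5.12 and 5.22 FPKM in TRPV3 replicates 1 to 3, against 5.58, 5.38 and 5.39 FPKM in mock replicates 1 to 3. All 3 TRPV3 libraries lay below all 3 mock libraries by a narrow margin, as they did for 5.39% of all genes tested. The means were 5.22 ± 0.0902 FPKM with TRPV3 and 5.45 ± 0.111 FPKM with mock (SD, n = 3 each). The log2 fold change was -0.05 (SE 0.07, interval -0.21 to 0.11, adjusted p = 0.789 by limma), against -0.06 without TRPV3 replicate 1, and it became 0.05 once the trend with gene length was removed from each library. Of its exonic bases, 584 are shared with ALKBH4 on the opposite strand, and no strand setting was named. The whole ALKBH4 gene had up to 346 reads in a library, at most 33.3% of those of ORAI2. How many reads fell in the shared bases is not known.

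ORAI3 (ENSG00000175938, chr16:30949066-30956461, plus strand), a pore subunit found in mammals that also joins channels gated by arachidonic acid, was scarce. It had 2.02, 1.29 and 1.10 FPKM in TRPV3 replicates 1 to 3, against 1.27, 1.19 and 1.35 FPKM in mock replicates 1 to 3. The groups overlapped, and TRPV3 replicate 1 alone stood high. From 51 to 94 reads lay behind the TRPV3 values and 51 to 65 behind the mock values. The log2 fold change was 0.10 (SE 0.15, interval -0.24 to 0.45, adjusted p = 0.804 by limma), against -0.05 without TRPV3 replicate 1.

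Within the summed FPKM of the 3 ORAI genes, ORAI1 made up 74.6%, 71.7% and 72.9% in TRPV3 replicates 1 to 3, against 69.1%, 70.2% and 70.1% in mock replicates 1 to 3. Its mean share was 73.1 ± 1.44% with TRPV3 and 69.8 ± 0.629% with mock (SD, n = 3 each), a difference of 3.25 percentage points. ORAI2 made up 18.4%, 22.6% and 22.4% in TRPV3 replicates 1 to 3, against 25.2%, 24.4% and 23.9% in mock replicates 1 to 3, a difference of -3.36 points. For each of these shares the groups did not overlap and p was 0.1 by an exact permutation test (two-sided), the lowest that 3 against 3 libraries allow. Adjusted over the 7 shares computed, that is 0.35, so this design could not have called either share. ORAI3 made up the rest, on average 5.81% with TRPV3 and 5.70% with mock, so the 2 shares are nearly 1 contrast. No share was computed with the trend with gene length removed. How often shares of other gene pairs keep their groups apart was not tested. Without TRPV3 replicate 1 the differences were 2.50 points for ORAI1 and -2.0 points for ORAI2. Counted as reads rather than per length, ORAI2 exceeded ORAI1, because its exons span 11103 bases against 2262.

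**Figure D2:**
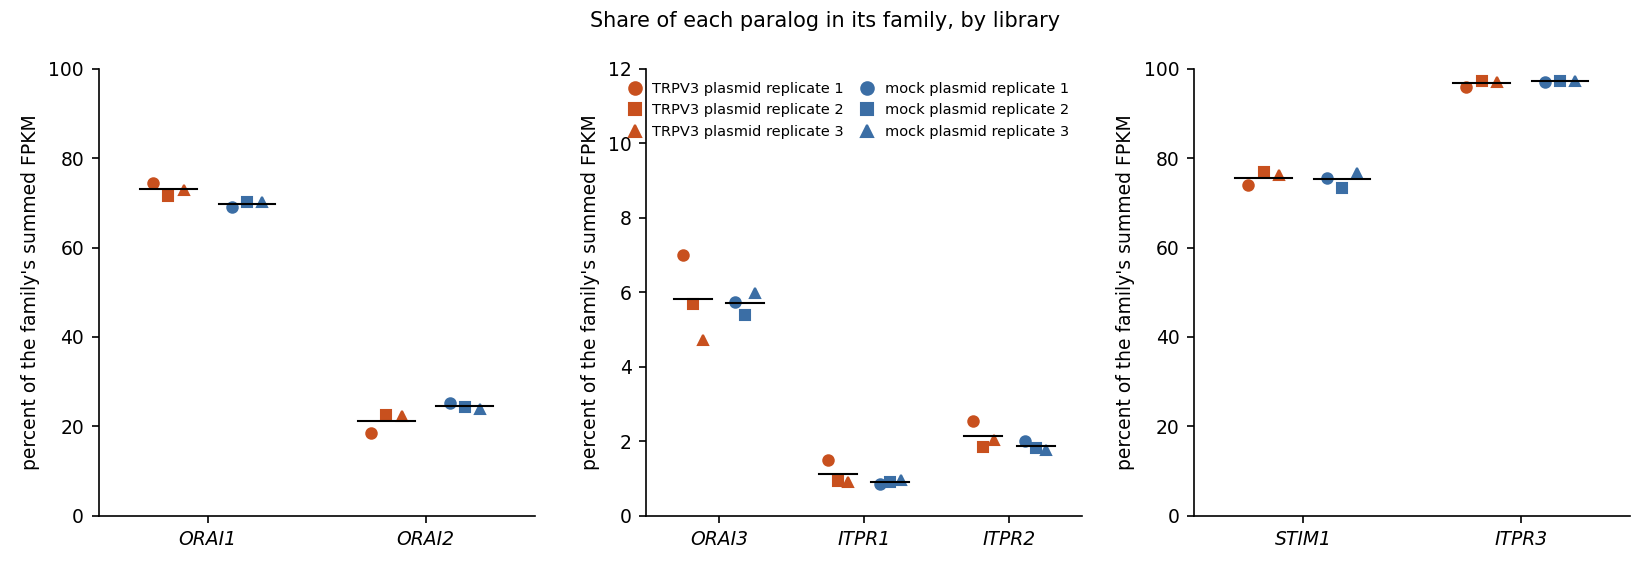
Share of each paralog in the summed FPKM of its family, in percent, for the TRPV3 plasmid left of the mock plasmid; points are single libraries and bars are means of 3, and the middle panel has its own scale. ORAI1 lay higher and ORAI2 lower in all 3 TRPV3 libraries, while STIM1 stayed near 75% and ITPR3 near 97% in both groups. No share was called, and none was computed with the trend with gene length removed.

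The store sensors overlapped between groups. STIM1 (ENSG00000167323, chr11:3854527-4093210, plus strand), the sensor that opens ORAI1 when the store is depleted, had 8.12, 11.7 and 10.5 FPKM in TRPV3 replicates 1 to 3, against 10.7, 10.1 and 10.6 FPKM in mock replicates 1 to 3. TRPV3 replicate 1 was the lowest of the 6 libraries and TRPV3 replicate 2 the highest. Its log2 fold change was -0.06 (SE 0.13, interval -0.36 to 0.24, adjusted p = 0.863 by limma), against 0.08 without TRPV3 replicate 1. STIM2 (ENSG00000109689, chr4:26857678-27025381, plus strand), which responds to smaller losses of store calcium and helps to hold resting calcium, had 2.85, 3.52 and 3.29 FPKM in TRPV3 replicates 1 to 3, against 3.44, 3.67 and 3.22 FPKM in mock replicates 1 to 3. Here too TRPV3 replicate 1 was lowest and the groups overlapped. Its log2 fold change was -0.08 (SE 0.09, interval -0.30 to 0.14, adjusted p = 0.780 by limma), against -0.012 without TRPV3 replicate 1. STIM1 averaged 75.7 ± 1.5% of the summed STIM FPKM with TRPV3 and 75.3 ± 1.71% with mock (SD, n = 3 each; exact permutation p = 0.6).

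Among the release channels ITPR3 held nearly the whole family signal and also the widest spread of any member. ITPR3 (ENSG00000096433, chr6:33620365-33696574, plus strand), the IP3 receptor typical of secretory and other epithelia, had 24.99, 58.9 and 64.0 FPKM in TRPV3 replicates 1 to 3, against 66.9, 59.1 and 56.9 FPKM in mock replicates 1 to 3. TRPV3 replicate 1 stood far below the other 5 libraries, which overlapped. The reads ran from 4352 to 11044 with TRPV3 and from 9464 to 11592 with mock, so counting error was small. The means were 49.3 ± 21.2 FPKM with TRPV3 and 60.9 ± 5.25 FPKM with mock (SD, n = 3 each). The log2 fold change was -0.41 (SE 0.33, interval -1.18 to 0.37, adjusted p = 0.755 by limma). Without TRPV3 replicate 1 it was 0.01 (SE 0.08, interval -0.17 to 0.20), which is 0.888 to 1.15 as a fold of FPKM + 1. With all 6 libraries and the length trend removed it was -0.32. ITPR3 shares 1025 exonic bases with UQCC2 on the opposite strand. The whole UQCC2 gene had up to 498 reads in a library, at most 11.4% of the reads of ITPR3. How many fell in the shared bases is not known.

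ITPR2 (ENSG00000123104, chr12:26336515-26833198, minus strand), the IP3 receptor most sensitive to IP3, had 0.662, 1.12 and 1.33 FPKM in TRPV3 replicates 1 to 3, against 1.39, 1.11 and 1.04 FPKM in mock replicates 1 to 3. The groups overlapped, with TRPV3 replicate 1 lowest. Its log2 fold change was -0.11 (SE 0.15, interval -0.46 to 0.24, adjusted p = 0.803 by limma), against 0.03 without that library. ITPR1 (ENSG00000150995, chr3:4493345-4847840, plus strand), the receptor best known from neurons, had 0.393, 0.560 and 0.590 FPKM in TRPV3 replicates 1 to 3, against 0.589, 0.547 and 0.561 FPKM in mock replicates 1 to 3. It had 225 to 335 reads with TRPV3 and 288 to 336 with mock, and its exons are so long that these gave under 1 FPKM. With no filter on low values its log2 fold change was -0.05 (SE 0.12, adjusted p = 0.844 by limma over 38259 genes). ITPR3 made up 95.9%, 97.2% and 97.1% of the summed ITPR FPKM in TRPV3 replicates 1 to 3, against 97.1%, 97.3% and 97.3% in mock replicates 1 to 3 (exact permutation p = 0.2). The difference of -0.47 points was -0.063 points without TRPV3 replicate 1.

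The 2 pumps differed in level and not in their calls. ATP2A2 (ENSG00000174437, chr12:110280756-110351093, plus strand), the SERCA2 pump, had 19.4, 31.5 and 32.6 FPKM in TRPV3 replicates 1 to 3, against 33.0, 32.1 and 29.5 FPKM in mock replicates 1 to 3. TRPV3 replicate 1 was again far below the other 5 libraries, and those 5 overlapped between 29.5 and 33.0 FPKM. Its log2 fold change was -0.21 (SE 0.19, interval -0.65 to 0.24, adjusted p = 0.755 by limma). Without TRPV3 replicate 1 it was 0.03 (interval -0.12 to 0.17), or 0.923 to 1.12 as a fold of FPKM + 1. ATP2B1 (ENSG00000070961, chr12:89588049-89709300, minus strand), the widely expressed plasma membrane pump PMCA1, had 4.76, 5.92 and 6.26 FPKM in TRPV3 replicates 1 to 3, against 6.03, 5.33 and 5.37 FPKM in mock replicates 1 to 3. The groups overlapped, and its log2 fold change was 0.01 (SE 0.11, interval -0.24 to 0.26, adjusted p = 0.974 by limma). Without TRPV3 replicate 1 it was 0.11 (interval -0.06 to 0.28).

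**Figure D3:**
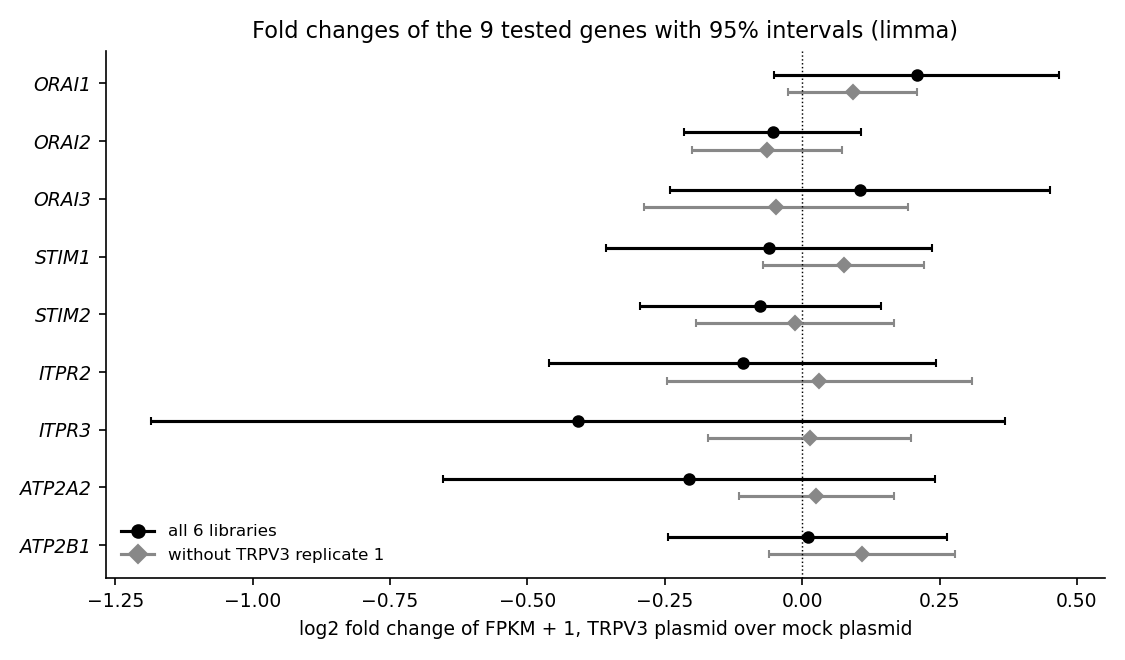
Log2 fold change of FPKM + 1, TRPV3 plasmid over mock plasmid, of the 9 tested genes with 95% intervals from limma, with all 6 libraries and without TRPV3 replicate 1. All 9 intervals cross 0 in both fits, and without that library ITPR3 lies at 0.01 and ATP2A2 at 0.03.

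Across the 9 tested members, 3 log2 fold changes lay above 0 and 6 below, with a median of -0.06, beside a median of 0.01 over all genes tested, of which 53.0% lay above 0. Without TRPV3 replicate 1, 6 lay above 0 and 3 below, with a median of 0.03. In that fit none of the 9 was called by limma and none had an unadjusted p under 0.05, against 0.0657% and 7.06% of all genes tested. With voom on the reads of the same 5 libraries, chosen as a check after the data were seen, again none of the 9 was called or had such a p, against 0.542% (0.501% higher with TRPV3 and 0.0411% lower) and 7.96% of all genes. The groups overlapped for 7 of the 9, and 1 member lay wholly above and 1 wholly below, beside the 9.49% and 5.39% of all genes tested that did so. TRPV3 replicate 1 was the lowest of the 6 libraries for 6 members and the highest for 2, ORAI1 and ORAI3, which are the 2 shortest. With all 6 libraries and the length trend removed, the log2 fold changes were 0.097 for ORAI1, 0.048 for ORAI2 and 0.011 for ORAI3. They were -0.015 for STIM1, -0.035 for STIM2, 0.0085 for ITPR2 and -0.32 for ITPR3. ATP2A2 had -0.081 and ATP2B1 0.092, and none of the 9 was called by limma.

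In TRPV3 replicate 1 the members were set beside all tested genes of like length. ORAI1 lay 0.40 and ORAI3 0.43 above the mean of the other 5 libraries on the log2(FPKM + 1) scale, and TRPV3 replicate 1 was the highest library for 61.3% of all tested genes under 4 kb. Of the 5 tested members of 8 kb or more, 4 were lowest there, as were 72.9% of all genes of that length. ATP2A2 lay 0.68 and ITPR2 0.40 below, with 273 and 848 of the 2273 genes of that length as low or lower. ORAI2 lay 0.01 below although its exons are long. ITPR3 lay 1.25 below, a depth that 0.440% of those genes reached. The shift of ITPR3 was thus outside the quartiles of its length class, which were -0.52 and -0.07, and it was seen in 1 library only. The 1 added to FPKM limits how far a scarce gene can fall on this scale. Genes were compared by length and not by level, so how rare such a depth is among equally abundant genes was not tested.

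**Figure D4:**
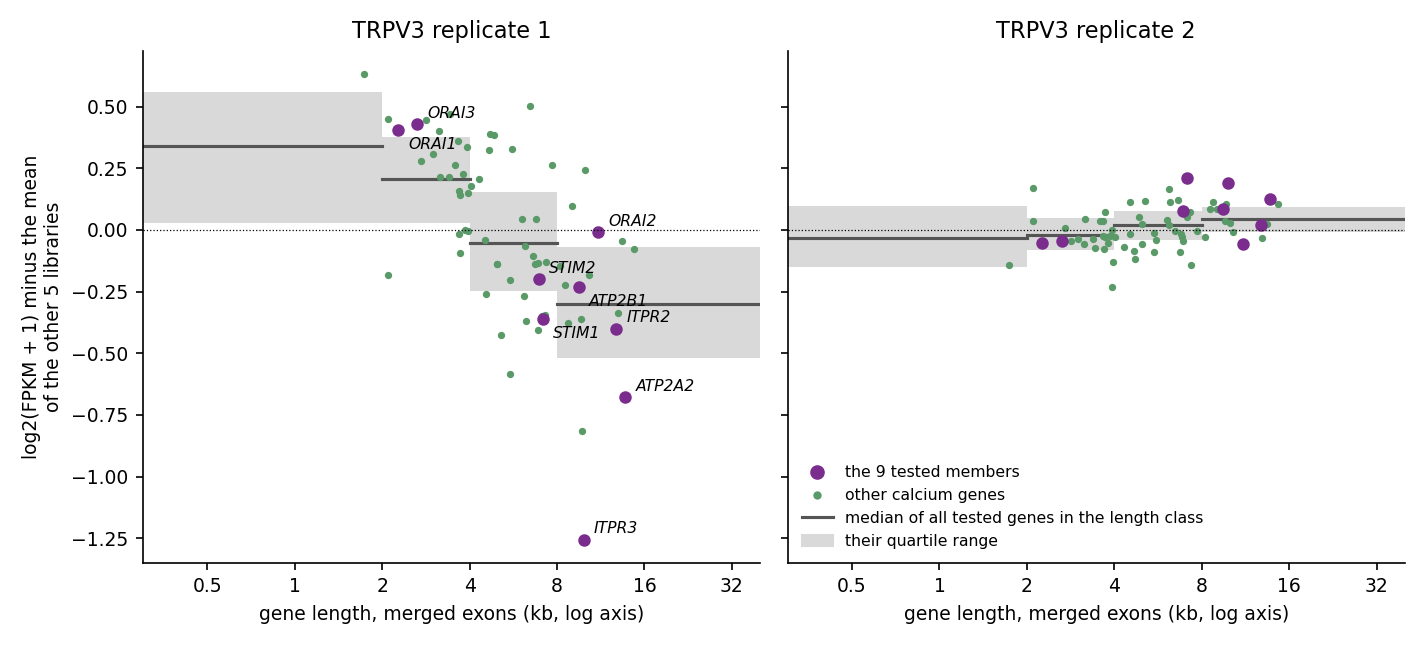
Deviation of log2(FPKM + 1) from the mean of the other 5 libraries against gene length on a log axis, in TRPV3 replicates 1 and 2; purple points are the 9 tested members, green points other calcium genes, lines and shading the median and quartiles of all tested genes in a length class. In replicate 1 the class medians fall from 0.34 to -0.30 with length and ITPR3 lies at -1.25, while in replicate 2 the members lie near 0.

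A wider list of 90 genes that regulate, feed or buffer these stores was read in the same fit. Of these, 89 were found and 60 passed the filter. None was called by limma, and 2 of the 60 had an unadjusted p under 0.05, beside 4.48% of all genes tested. With voom and sample quality weights none was called and 6 had such a p, beside 14.1% of all genes, so neither count stood above the background. Of the 60, 33 lay above 0 and 27 below, between -0.27 and 0.26, with a median of 0.02. Of all genes tested, 53.0% lay above 0. The TRPV3 libraries lay wholly above the mock libraries for 8 of the 60 and wholly below for 2. Over all genes tested those shares were 9.49% and 5.39%. The ryanodine receptors RYR1, RYR2 and RYR3, the release channels of muscle and nerve, were all under the filter, as was ATP2A1, the pump of fast muscle.

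Near the IP3 receptors, ERP44, a lumenal protein that binds ITPR1, had the lowest p of its role. It averaged 14.9 ± 1.90 FPKM with TRPV3 and 12.2 ± 0.854 FPKM with mock (SD, n = 3 each), a log2 fold change of 0.25 (SE 0.11, unadjusted p = 0.0460, adjusted p = 0.755 by limma). Its TRPV3 libraries lay wholly above the mock libraries, as for 9.49% of all genes tested, and the value was 0.16 without TRPV3 replicate 1. HOMER3, a scaffold of IP3 receptors, averaged 8.0 FPKM with TRPV3 and 6.44 FPKM with mock, with overlapping groups. The log2 fold change of 0.26 was 0.13 without TRPV3 replicate 1. On the side of IP3 production, PLCD3, a phospholipase C, averaged 23.8 ± 0.818 FPKM with TRPV3 and 26.3 ± 0.121 FPKM with mock (SD, n = 3 each). Every TRPV3 library of PLCD3 lay below every mock library, as for 5.39% of all genes tested. Its log2 fold change was -0.14 and, without TRPV3 replicate 1, -0.12. The kinase gene ITPKC, whose product converts IP3, had a log2 fold change of 0.13, against 0.068 without TRPV3 replicate 1.

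Among the other pumps, ATP2A3, the SERCA3 pump, was scarce. Every TRPV3 library of it lay below every mock library, as for 5.39% of all genes tested. It had 1.97, 2.12 and 1.90 FPKM in TRPV3 replicates 1 to 3, against 2.41, 2.43 and 2.44 FPKM in mock replicates 1 to 3. Its log2 fold change was -0.19 with all libraries (SE 0.08, unadjusted p = 0.0448, adjusted p = 0.755 by limma) and -0.19 without TRPV3 replicate 1. ATP2B4, the plasma membrane pump PMCA4, averaged 15.3 ± 4.79 FPKM with TRPV3 and 18.1 ± 1.44 FPKM with mock (SD, n = 3 each), and its TRPV3 replicate 1 stood alone at 9.84 FPKM. The log2 fold change of ATP2B4 was -0.27 with all libraries and -0.0013 without that one. ATP2C2, a pump of the secretory pathway, had a log2 fold change of -0.12, against -0.097 without TRPV3 replicate 1. All 4 tested genes of this role lay below 0, and 3 of 4 did without TRPV3 replicate 1. Of all genes tested, 53.0% and 53.7% lay above 0 in those fits.

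Among regulators of ORAI and STIM, 2 of 5 lay above 0. SARAF, which shuts store-operated entry down, averaged 45.3 FPKM with TRPV3 and 41.3 FPKM with mock, and its log2 fold change of 0.13 became 0.03 without TRPV3 replicate 1. GRAMD2A, a tether between the endoplasmic reticulum and the plasma membrane, had a log2 fold change of -0.09, against -0.062 without that library. Among other channels of stores, TMCO1, a leak channel, had 0.17 and PKD2, a polycystin, had -0.26 on that scale, against 0.08 and -0.07 without TRPV3 replicate 1. Of the subunits that assist pumps, NPTN had a log2 fold change of 0.10 and BSG 0.05, and the mitochondrial exchanger SLC8B1 had 0.01. NPTN had 0.046 without TRPV3 replicate 1, while BSG at -0.029 and SLC8B1 at -0.012 turned below 0.

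In the organelles that take calcium up, 8 of 10 mitochondrial uptake genes and 7 of 9 lumenal buffer genes lay above 0. Of all genes tested, 53.0% did. The median log2 fold changes of the 2 roles were 0.12 and 0.06. TRPV3 replicate 1 was the highest library for 6 of the 10 and 5 of the 9. It was so for 61.3% of all tested genes under 4 kb, and the median length of the uptake genes was 3605.5 bases. Without TRPV3 replicate 1 the counts were 6 of 10 and 7 of 9, beside 53.7% of all genes tested, and the medians were 0.04 and 0.05. MICU2, a gatekeeper of the mitochondrial uniporter, averaged 14.0 FPKM with TRPV3 and 11.9 FPKM with mock, a log2 fold change of 0.21 that was 0.11 without that library. MCUB, a subunit that limits the uniporter, had 0.17, against 0.11 without it. CALR, the store buffer calreticulin, averaged 307 FPKM with TRPV3 and 273 FPKM with mock, a log2 fold change of 0.17 that was 0.095 without TRPV3 replicate 1. NUCB2, a calcium-binding protein of the secretory pathway, had 0.13, against 0.12 without it. Of the genes of these roles named here, none had an unadjusted p under 0.05.

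**Figure D5:**
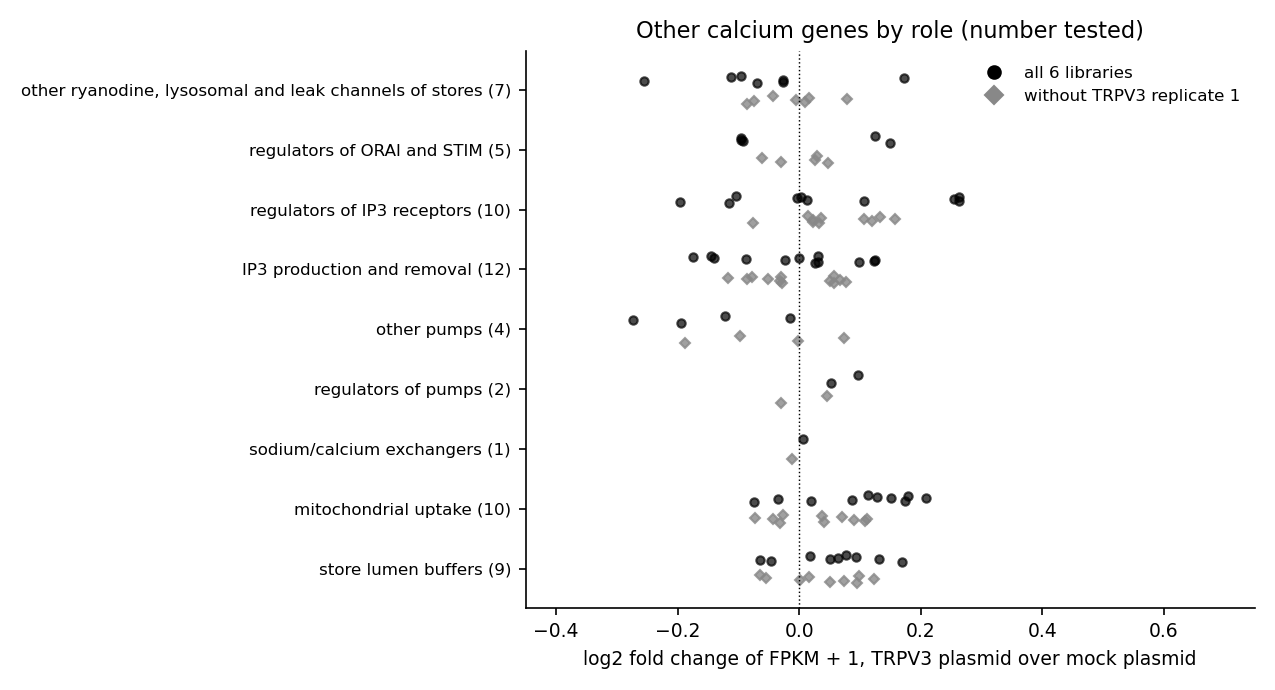
Log2 fold change of FPKM + 1, TRPV3 plasmid over mock plasmid, of the 60 other calcium genes that were tested, by role; circles use all 6 libraries and diamonds leave out TRPV3 replicate 1. All values with 6 libraries lie between -0.27 and 0.26, and those without TRPV3 replicate 1 lie between -0.19 and 0.16.

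Likeness of pattern was measured as the distance between deviations of log2(FPKM + 1) from each gene's mean, over the 6 libraries, among 68 other tested calcium genes. The genes nearest to ORAI1, the member with the lowest p, were MICU2 at 0.06, VDAC2, a channel of the outer mitochondrial membrane, at 0.10 and TMCO1 at 0.11, beside a median of 0.44. Nearest to ITPR3, the member of highest mean FPKM, were ATP2B4 at 0.41, ATP2A2 at 0.54 and PKD2 at 0.62, beside a median of 1.14. In the genes nearest to ORAI1 the TRPV3 replicate 1 library was the high one, and in those nearest to ITPR3 it was the low one.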

How the data were processed

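Per the labels' protocols, RNA from 6 SZ95 cultures was extracted with TRIzol and made into NEBNext Ultra libraries. HISAT2 2.0.5 and hg38 stand in the submitters' processing notes; neither names a counter or a strand setting. Per the file headers, the deposited values are FPKM of genes in each library, with merged exon lengths equal to GENCODE 29 for the members. FPKM times length gave whole reads for 100% of values (tolerance 0.02), so reads could be recovered. At these depths 3 reads, which a count of 0 allows, equal 0.165 to 0.185 FPKM at 1 kb, for counting error only.

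From these values, log2(FPKM + 1) was tested with limma 3.58.1 in R 4.3.3, with trended empirical Bayes over 12177 genes and 95% intervals. Alternatives changed the scaling, filter, pseudocount, trend and libraries, and voom was run on the recovered reads. The fit was also run on simulated reads drawn from mock means, without a length trend or a library that stood apart. That run cannot show how the fit behaves with TRPV3 replicate 1. The series' text calls replicates biological. Planned count-model alternatives were not run, and voom on the recovered reads was used in their place. Members and lists were chosen with earlier results of these data known. Named were all members, TRPV3, the 2 genes of lowest p in each role and the 3 most like ORAI1 and ITPR3.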

Additional observations from a re-analysis of the deposited data

How the results depend on the processing

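None of the members tested was called under 18 other settings of the limma fit, which tested 9 of the 10 members except for 6 with a filter of 5 FPKM and all 10, ITPR1 included, with no filter. The lowest adjusted p of a member was 0.435. Of 159 member values under them, 139 kept their direction and 20 took the other one, none called. The genes called over all tested numbered 5. They were 3 with a filter of 5 FPKM, 2 with no filter, 139 with voom and sample weights, 66 with voom without TRPV3 replicate 1, 10 without that library and mock replicate 3, and 2 to 8 when single libraries were left out. The weighted voom fit gave TRPV3 replicate 1 a weight of 0.071, the lowest of the 6 libraries, so it came near to leaving that library out. With a replicate block 3 were called and no member. Whether the replicate numbers pair the samples was not settled. Same-numbered libraries correlated at -0.27, -0.04 and -0.17 in their deviations from group means, and differently numbered ones between -0.16 and 0.22. Deviations within a group of 3 are tied to each other, so these values cannot show whether cultures were paired. The block permutation of each share cannot go below p = 0.25. For the share of ORAI1 that exact permutation test gave p = 0.25, the smallest it can give.

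Log2 fold changes that crossed 0, of which the cause was not tested, were as follows. With the length trend removed ORAI2 had 0.048 and ITPR2 0.0085. With voom and sample weights ORAI3 had -0.027 and STIM1 0.094. With voom without TRPV3 replicate 1, ORAI3 had -0.12, STIM1 0.052 and ITPR2 0.026. Without that library and mock replicate 3, ORAI3 had -0.023 and STIM1 0.085. ATP2B1 had -0.082 with TPM scaling and -0.031 with scaling to total reads. With single libraries left out, ITPR3 ran from -0.65 to 0.014, ATP2A2 from -0.33 to 0.026, ITPR2 from -0.21 to 0.031, STIM1 from -0.16 to 0.076, ORAI3 from -0.048 to 0.21 and ATP2B1 from -0.057 to 0.11. Shares also moved with the length used. The difference for ORAI1 was 4.38 points from reads, and that for ITPR1 was 0.63 points from reads and 0.65 per longest coding transcript, against 0.20. The difference for ITPR1 was 0.0041 points without TRPV3 replicate 1, and those for ITPR2 and ITPR3 were 0.059 and -0.063 points, against 0.26 and -0.47. The ORAI3 difference of 0.11 points was -0.49 without TRPV3 replicate 1 and -0.048 without mock replicate 2. That of STIM1 ran from -0.50 to 1.27 points, around 0.42. Left-out-library ranges for shares were 2.50 to 3.94 points for ORAI1 and -4.10 to -2.0 points for ORAI2. The count-model fits listed among the alternatives were not run, and voom on the recovered reads stood in for them.

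ORAI3, ITPR1 and ITPR2 rest on 51 to 336 reads a library. The SE of a log2 fold change did not follow depth alone. It was 0.15 for ITPR2 with at least 149 reads a library and 0.33 for ITPR3 with at least 4352. With 0.1 added to FPKM in place of 1, these SEs were 0.28 and 0.34. The small SE of ITPR2 thus depends on the value added.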
